A study of Mus musculus with 6 samples.

Results

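A set of 9 immediate early genes was followed in single cells of regenerating mouse muscle: the AP-1 genes *Fos*, *Fosb*, *Jun*, *Junb*, *Jund* and *Atf3*, together with *Egr1*, *Ier2* and *Nr4a1*. They were chosen by gene symbol, and all 9 were found among the 12436 genes listed. The cells came from the tibialis anterior muscle (TAM) of male mice on a B6;129 background that carried the Fucci2aR cell cycle reporter as the allele Gt(ROSA)26Sor<tm1(Fucci2aR)Jkn and, per the study's methods, were negative for the *Pax7*-Cre of that line. Hypothyroid mice ate an iodine-deficient diet with 0.15% propylthiouracil (PTU), which blocks thyroid hormone synthesis, and control mice ate a matched diet, both from an age of 3 to 5 months. Muscles were uninjured (day 0) or taken 5 or 14 days after cardiotoxin, a snake venom toxin that destroys myofibers. Each of the 6 combinations of diet and day was 1 library of 3 pooled mice, so no difference between libraries has a replicate check and no p-value is given.

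Immediate early genes are transcribed within minutes of a growth factor, cytokine, calcium or stress signal, without new protein synthesis, and their messages decay quickly. FOS and JUN proteins pair through leucine zippers to form AP-1, which binds DNA at AP-1 and cyclic AMP response element (CRE) sites, whereas FOS proteins do not pair with each other. EGR1 is a zinc finger factor induced by the same kinase pathways. Muscles were minced and digested with collagenase and Dispase before capture, and such dissociation is known to induce these genes too, so the tissue state and a response to the preparation cannot be told apart from the levels alone.

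The first run of columns of each file held 11207 cells, with 528 to 3294 cells and 2283740 to 23496509 UMIs (unique molecular identifiers, each standing for 1 captured transcript) per library. The median per cell was 3634 to 8055 UMIs. An upper limit of 8000 UMIs per cell is stated in the methods, whereas the columns held cells of 479 to 49806 UMIs. Of these cells, 1680 also stood in a file of another condition: 1152 of the 1650 hypothyroid cells at day 14 and 528 of the 2428 control cells at day 5, so the main summed ratios that rest on these libraries are also given without them. Whether each first run belongs to its label could not be checked, and 12 barcodes were shared between first runs. The files held 20269 columns in all, so the main results use only part of them. At days 0 and 5 the study's own cell counts are close to all columns of a file, not to its first run. Those files held 2304 and 4855 columns in control and 1056 and 4309 in hypothyroid muscle. Cells were gated by markers into fibroadipogenic progenitors (FAPs, 4348 cells), endothelial (919), mural (226), glial (133), myogenic progenitor (244), myocyte (434), monocyte/macrophage (967), T/NK (1051), B (152) and granulocyte (20) cells, and 2713 cells were not gated. In FAPs, *Dcn* was detected in 99.4% and *Pdgfra* in 66.0% of cells. Endothelial cells held *Cdh5* in 91.3%, whereas of the myocyte markers *Acta1* was detected in 99.1% of myocytes but also in 91.7% of glial cells.

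The upstream sequences of the members are shown because most of them followed one another across cell types. RefSeq promoters were matched for 7 of the 9 members, in build GRCm38.p6, which is not the build of the expression files; *Egr1* and *Ier2* were not matched. Of the 250 bases before the start site, 5 of the 7 promoters held TGACG, the core of a CRE, on either strand (*Fos*, *Fosb*, *Junb*, *Atf3* and *Nr4a1*), against 17.7% of 32817 promoters. *Jun* held the JUN/ATF variant TGACATCA, found in 2.93% of promoters, and *Jund* held neither. None of the 7 held the AP-1 site TGANTCA (6.75% of promoters), the full CRE TGACGTCA (1.55%, and a match to it is also a match to TGACG), or a strict CArG box, the serum response factor site (1.47%). The CArG box was searched as CCWWWWWWGG, with W for A or T. Sites that differ from these letters were not counted. Both strands were searched, and bases further upstream were not. The stretches below run 5′ to 3′ along the gene and end at the base before the start site, with TGACG, its reverse complement CGTCA and TGACATCA in capitals.
*Fos* (chr12:85473750-85473889, plus strand): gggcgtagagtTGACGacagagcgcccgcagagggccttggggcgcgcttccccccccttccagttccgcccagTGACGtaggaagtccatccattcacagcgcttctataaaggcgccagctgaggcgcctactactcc
*Fosb* (chr7:19310046-19310185, minus strand): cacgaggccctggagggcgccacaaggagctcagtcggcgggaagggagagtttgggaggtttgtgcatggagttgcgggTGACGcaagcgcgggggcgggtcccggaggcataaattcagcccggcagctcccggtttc
*Jun* (chr4:95052223-95052362, minus strand): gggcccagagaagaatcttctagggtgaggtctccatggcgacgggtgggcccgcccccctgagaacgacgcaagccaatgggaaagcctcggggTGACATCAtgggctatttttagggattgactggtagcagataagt
*Junb* (chr8:84978749-84978888, minus strand): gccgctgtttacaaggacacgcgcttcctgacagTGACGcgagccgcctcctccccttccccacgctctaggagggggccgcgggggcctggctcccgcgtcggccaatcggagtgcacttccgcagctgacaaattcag
*Atf3* (chr1:191183334-191183473, minus strand): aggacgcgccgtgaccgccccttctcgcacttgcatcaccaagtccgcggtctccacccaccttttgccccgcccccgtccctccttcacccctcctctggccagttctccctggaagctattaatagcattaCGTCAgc
*Nr4a1* (chr15:101266596-101266845, plus strand): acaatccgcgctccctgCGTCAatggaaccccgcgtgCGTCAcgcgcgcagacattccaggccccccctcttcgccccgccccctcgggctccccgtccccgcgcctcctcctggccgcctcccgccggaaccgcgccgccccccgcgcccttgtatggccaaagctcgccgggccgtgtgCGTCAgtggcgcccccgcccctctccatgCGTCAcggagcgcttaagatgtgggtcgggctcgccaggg
The *Fos* matches began 129 and 66 bases before the start site, that of *Atf3* began 7 bases before it, and *Nr4a1* held 4, from 233 to 40 bases before it. These matches describe the letters of the window and not factor binding.

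The members were highest in vessel cells and lowest in lymphocytes. Over all libraries together, the summed level of the 9 members was 16920 CPM (counts scaled to the same total of UMIs in every pool) in mural cells, the pericytes and smooth muscle of vessels, 9713 CPM in endothelial cells, 6197 CPM in glial cells, 5203 CPM in FAPs, 3204 CPM in myocytes, 3120 CPM in myogenic progenitors, 1965 CPM in monocytes/macrophages, 1697 CPM in B cells and 1258 CPM in T/NK cells. Among pools of at least 20 cells, mural cells were highest in each of the 3 libraries where they reached that number, endothelial cells were above FAPs in each of the 5 libraries that held both, and T/NK cells were lowest in each of the 5 that held them. Myogenic progenitors and FAPs, by contrast, changed order between libraries, with FAPs lower at day 14 of hypothyroidism (3555 against 4214 CPM) and higher at day 14 in control (5739 against 3814 CPM).

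**Figure D1:**
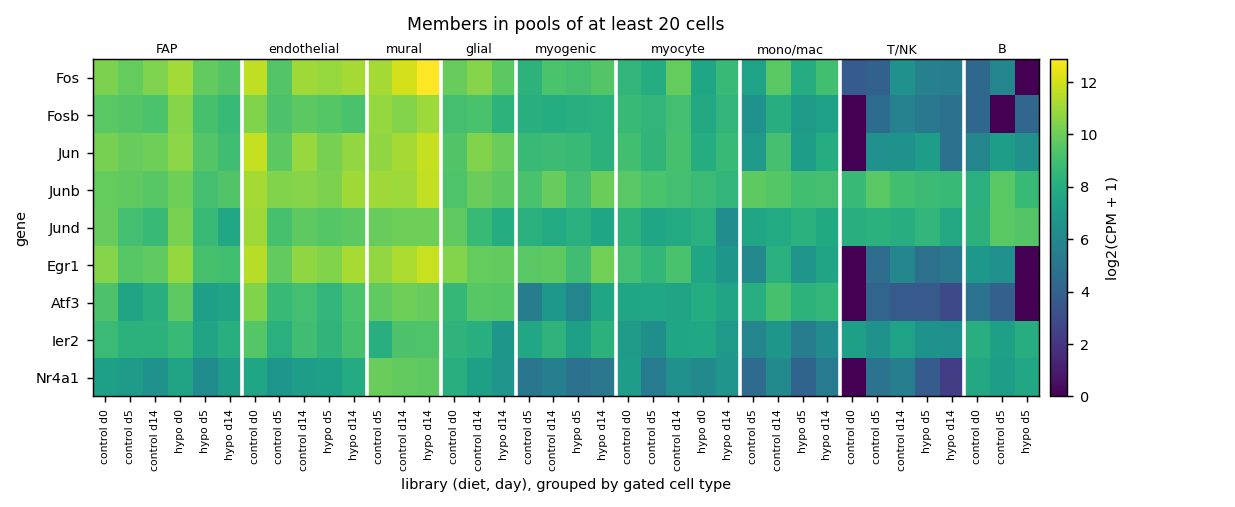
Level of each member (rows) in every pool of at least 20 cells (columns: library, grouped by gated cell type), as log2(CPM + 1) in color. Within a library, *Fos*, *Jun* and *Egr1* are brightest in mural cells where these are shown. Endothelial *Fos* and *Jun* in control at day 5 (701 and 798 CPM) lie below FAPs of that library (906 and 936 CPM). *Fos* is darkest in T/NK and B cells, whereas *Junb* lies between 286 and 3303 CPM in the pools shown.

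*Fos*, the inducible partner of JUN, was among the members with a wide contrast between cell types. In mural cells its level was 2288 CPM in control at day 5 (21 cells), 4325 CPM in control at day 14 (142 cells), and 7569 CPM in hypothyroid muscle at day 14 (35 cells). In T/NK cells it was 12.3, 15.02, and 91.0 CPM in control at days 0, 5, and 14, and 47.3 and 45.1 CPM in hypothyroid muscle at days 5 and 14. The mural and T/NK levels did not overlap. After thinning each cell to 1000 UMIs, a *Fos* UMI was seen in 1.75% to 6.15% of T/NK cells per library (median depth 2522 to 3660 UMIs) and in 18.5% to 39.2% of FAPs (median depth 4375 to 13380 UMIs). Unthinned, the shares were 4.55% to 19.1% and 41.7% to 61.2%. In each library with at least 20 cells of both types, the thinned *Fos* share in FAPs was above that in T/NK cells. No profile of free RNA was made, and its part in either share was not tested.

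The composition of the JUN family also differed between cell types. *Jun* made up 42.1% of *Jun*, *Junb* and *Jund* UMIs in FAPs (36.0% to 47.9% across 6 libraries), 40.6% in both endothelial and mural cells, 16.6% in monocytes/macrophages (10.5% to 36.1% across 4) and 9.04% in T/NK cells (0% to 15.7% across 5). *Junb*, a weaker activator than JUN in many settings, was the larger part in T/NK cells at 62.1% and in monocytes/macrophages at 57.4%. In B cells *Jund*, which is expressed in resting cells, was at 47.2% (45.2% to 57.6% across 3) and *Junb* at 43.6%, from 388 UMIs. In control at day 5 *Junb* was slightly ahead there, at 46.1% against 45.2%. Pooled over libraries, *Junb* ranged from 502 CPM in B cells to 2251 CPM in mural cells, whereas *Egr1* spanned 26.6 CPM in T/NK cells to 2670 CPM in mural cells.

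*Nr4a1*, an orphan nuclear receptor, was highest in mural cells of all gated types in the libraries where they were measured. Its level there was 968 CPM in control at day 5, 883 CPM in control at day 14, and 813 CPM in hypothyroid muscle at day 14. In endothelial cells it was 109 to 244 CPM over 5 libraries and in FAPs 77.3 to 184 CPM over 6, so the mural levels lay above both without overlap. *Atf3*, a stress-induced factor of the CREB/ATF family, was in monocytes/macrophages at 269 and 570 CPM in control at days 5 and 14 and at 326 and 365 CPM in hypothyroid muscle, whereas T/NK cells did not exceed 17.65 CPM in any pool of at least 20 cells. In myogenic progenitors *Atf3* was at 43.1 to 199 CPM while *Egr1* was at 494 to 1149 CPM, the latter overlapping FAPs at 507 to 1834 CPM.

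FAPs were the largest group and allowed all 6 libraries to be compared. The highest level of 8 of the 9 members was in uninjured hypothyroid muscle. *Fos* was at 1288, 906, and 1364 CPM in control at days 0, 5, and 14 and at 2209, 874, and 683 CPM in hypothyroid muscle. In uninjured muscle its ratio of hypothyroid to control was 1.72 (95% interval 1.64 to 1.80; intervals here cover counting error only). *Fosb*, another FOS protein, was at 782, 699, and 594 CPM in control and at 1491, 562, and 403 CPM in hypothyroid muscle, a ratio of 1.91 (1.80 to 2.02) at day 0. The 2 FOS genes were the members with the largest ratios in uninjured FAPs, and neither reached 2-fold.

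*Jun*, the founding AP-1 gene, was at 1221, 936, and 1069 CPM in control and at 1614, 703, and 486 CPM in hypothyroid FAPs at days 0, 5, and 14. *Junb* was flatter, at 920, 841, and 749 CPM in control and 1052, 545, and 658 CPM in hypothyroid muscle. *Jund* was steeper, at 947, 516, and 416 CPM in control and 1248, 424, and 207 CPM in hypothyroid muscle, a 6.04-fold span that was the widest of the members in FAPs. *Egr1* was at 1470, 754, and 862 CPM in control and at 1834, 568, and 507 CPM in hypothyroid muscle. *Atf3* was at 627, 182, and 279 CPM in control and at 818, 154, and 184 CPM in hypothyroid muscle, so both injured time points lay below both uninjured libraries. *Ier2*, which encodes a nuclear immediate early protein, was at 444, 310, and 313 CPM in control and 407, 181, and 282 CPM in hypothyroid muscle, and *Nr4a1* was at 162, 140, and 94.2 CPM in control and 184, 77.3, and 147 CPM in hypothyroid muscle. *Ier2* was thus the member whose highest FAP level was in control.

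**Figure D2:**
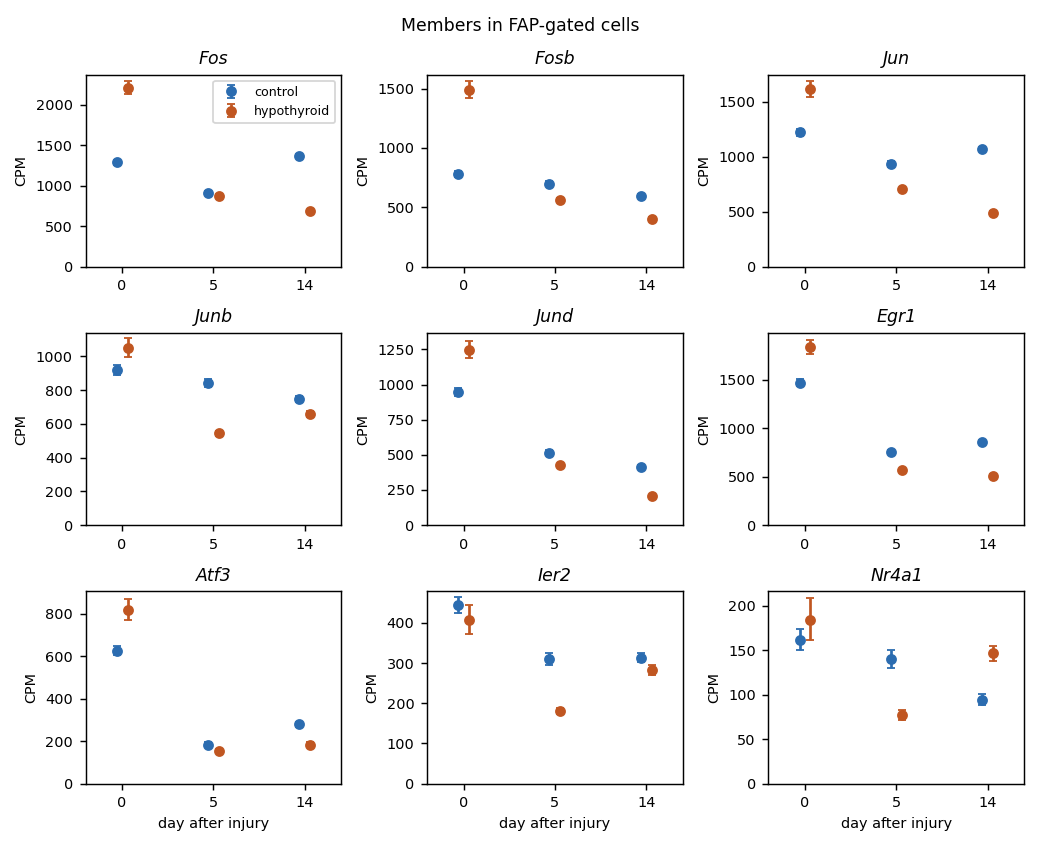
Level (CPM) of each member in FAP-gated cells by day after injury, 1 point per library (blue, control; orange, hypothyroid), with exact Poisson 95% intervals for counting error only. The uninjured hypothyroid library is highest for 8 members and falls to 3.05-fold less in summed level by day 14.

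Between diets, no member passed 2-fold in uninjured FAPs, where 4.72% of 10010 genes were at least 2-fold lower and 4.03% higher in hypothyroid muscle. The median member ratio was 1.31 against 0.999 over all genes tested, and 7 of 9 intervals lay above 1. At day 5, again no member passed 2-fold (10.9% of all genes lower, 3.32% higher), and the median was 0.754 against 0.797 over all genes. At day 14, 2 of 9 members were at least 2-fold lower, against 8.38% of genes lower: *Jun*, with a ratio of 0.4545 (0.4375 to 0.472), and *Jund*, with 0.497 (0.4685 to 0.527). *Fos* lay just outside, at 0.5004. None was 2-fold higher (1.27% of genes). *Nr4a1* went the other way, at 1.56 (1.42 to 1.70), and the median was 0.658 against 0.911. Without the cells that stood in another file, the summed ratio at day 14 was 0.548 in place of 0.620, and 4 members passed 2-fold.

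Across days, more members passed 2-fold in hypothyroid than in control FAPs, which at day 5 depended on depth: in FAPs with at most 8000 UMIs, 3 members were lower in control and 2 in hypothyroid muscle. At day 5 against day 0, 8 of 9 members were at least 2-fold lower in hypothyroid muscle, against 20.7% of genes, from *Atf3* at 0.188 to *Ier2* at 0.444, and *Junb* was at 0.518. In control the same comparison took *Atf3* past 2-fold (0.290), 1 of 9 members against 12.8% of genes. At day 14 against day 0, 6 of 9 were at least 2-fold lower in hypothyroid FAPs (17.1% of genes), with *Jund* at 0.166 and *Atf3* at 0.225, and 2 of 9 in control (4.52% of genes lower, 7.89% higher), *Jund* at 0.439 and *Atf3* at 0.445. Control *Fos* at day 14 was at 1.06 of its day 0 level, and hypothyroid *Fos* at 0.309. Without the cells in 2 files, the summed hypothyroid ratio at day 14 against day 0 was 0.290 in place of 0.3275, and the control ratio at day 5 against day 0 was 0.653 in place of 0.672. Between days 5 and 14, no member passed 2-fold in control FAPs (14.9% of genes lower, 9.98% higher), with *Fos* at 1.505. In hypothyroid FAPs *Jund* fell further, to 0.487 (1 of 9 members against 15.3% of genes lower), while *Nr4a1* was at 1.89 and *Ier2* at 1.56. With the later columns included, 1 in place of 8 members passed at day 5 against day 0 in hypothyroid FAPs. These comparisons share the day 0 libraries within a diet, and the difference between diets was not tested.

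The number of UMIs per cell, here called depth, moved with these levels. It also differed between cell types sequenced together. In control at day 5 the median was 12220 UMIs in FAPs, 4106 in endothelial cells and 3041 in T/NK cells. Depth is therefore not sequencing alone, and a limit on it also selects among cells. The median FAP held 5583, 12220, and 6040 UMIs in control at days 0, 5, and 14 and 4375, 13380, and 9490 UMIs in hypothyroid muscle. Within every library, FAPs with at most 8000 UMIs had a higher summed member level than FAPs with more, from 6109 against 5198 CPM in control at day 5 to 11370 against 3410 CPM in control at day 0. Restricted to FAPs with at most 8000 UMIs, the summed ratio of hypothyroid to control was 1.13 in place of 1.38 at day 0, 1.26 in place of 0.774 at day 5, and 0.8555 in place of 0.620 at day 14, so that the direction at day 5 turned. In those cells no member passed 2-fold at day 14, and 2 in place of 8 members passed at day 5 against day 0 in hypothyroid FAPs, where the summed ratio was 0.597 in place of 0.377. In control FAPs the same step gave 3 in place of 1 member and a summed ratio of 0.537 in place of 0.672, so that under this limit the lower ratio at day 5 was that of control. The part of depth in these differences was not tested further.

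**Figure D3:**
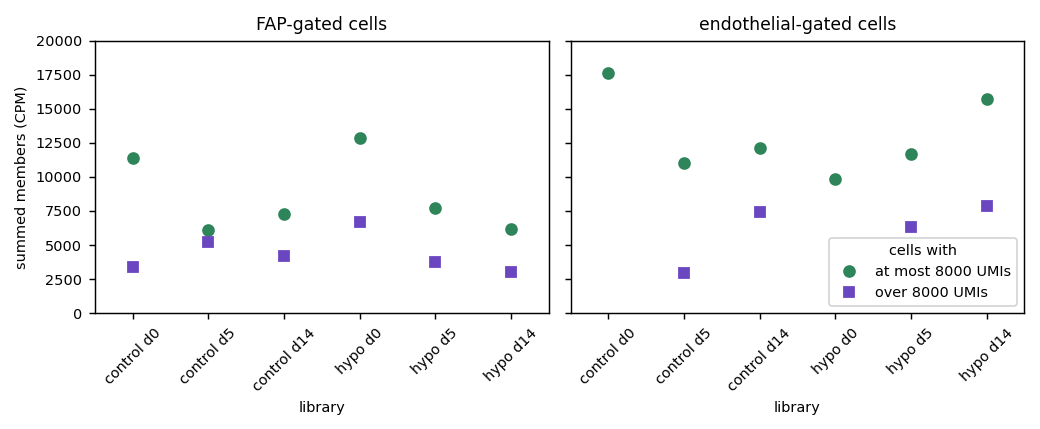
Summed level of the 9 members (CPM) in FAP-gated (left) and endothelial-gated (right) cells of each library, split into cells with at most 8000 UMIs (green circles) and more (purple squares), for sets of at least 10 cells. Every purple square lies below the green circle of its library.

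Heat shock genes, which dissociation is also known to induce, were read beside the members. In FAPs their 12-gene sum was 7978, 6533, and 7024 CPM in control and 8091, 6202, and 7437 CPM in hypothyroid muscle at days 0, 5, and 14. Between diets in uninjured FAPs 2 of 12 were at least 2-fold higher (4.03% of all genes), *Hspb1* at 2.502 and the inducible HSP70 gene *Hspa1a* at 2.30, with a list median of 1.04. *Hspa1a* was at 72.6, 25.6, and 25.9 CPM in control and at 167, 81.9, and 15.6 CPM in hypothyroid FAPs. *Hspa1a* and *Hspb1* were thus highest in uninjured hypothyroid FAPs and lowest in hypothyroid FAPs at day 14. The list did not share this order. *Hspe1* was lowest in uninjured hypothyroid FAPs, at 139 CPM, and was at 478.5 CPM there at day 14. *Hspa1b* was highest in hypothyroid FAPs at day 5, at 126.6 CPM. At day 5 *Hspa1a* and *Hspa1b* were 3.20-fold and 4.44-fold higher in hypothyroid FAPs while no member was. Mitochondrial genes took 1.84% to 3.55% of FAP UMIs. Myocyte markers, a sign of free RNA from fibers, summed to 2124, 434, and 5371 CPM in control FAPs and 6885, 115, and 1521 CPM in hypothyroid FAPs, and were thus also highest in the uninjured hypothyroid library. Whether any of these takes part in the member levels was not tested.

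Other genes of the response were counted from lists. Of 20 further immediate early genes in uninjured FAPs, 1 was 2-fold higher in hypothyroid muscle (*Nr4a3*, a relative of *Nr4a1*, at 2.04), against 4.03% of all genes, with a median of 1.33 against 0.999. At day 14 the same list had 1 lower (*Klf2*, 0.497) and 1 higher (*Nr4a3*, 2.12), against 8.38% and 1.27% of all genes, with a median of 1.05 where the members had 0.658 and all genes 0.911. Of 14 feedback regulators, 5 were lower and 1 higher in hypothyroid FAPs at day 5, against 10.9% and 3.32% of all genes. Among those lower were *Btg2* at 0.295 and the MAP kinase phosphatase *Dusp6* at 0.362, while the ERK antagonist *Spry2* was higher at 3.35. Of 10 upstream kinases and factors none passed 2-fold at day 0 or day 5, and 2 were lower at day 14 (8.38% of all genes), *Mapk14* at 0.480 and *Elk3* at 0.493. Among dimer partners, 3 of 13 in control and 9 of 14 in hypothyroid FAPs were lower at day 5 than at day 0, against 12.8% and 20.7% of all genes, led by *Maff*, a small MAF protein, at 0.2105 and 0.2503.

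Endothelial cells showed another course. Their *Fos* level was 3199, 701, and 2151 CPM in control at days 0, 5, and 14 and 1890 and 2255 CPM in hypothyroid muscle at days 5 and 14. The uninjured hypothyroid pool held 18 cells, below the minimum of 20, and stood at 1447 CPM. In control at day 5 against day 0, 7 of 9 members were at least 2-fold lower, against 13.9% of genes, led by *Fos* at 0.219 and *Jun* at 0.233. Of these, 3 turned direction under another setting: *Fosb* to 1.02 with the later columns, and *Atf3* to 1.14 and *Ier2* to 1.86 as means of log2(CPM + 1). By day 14 *Fos* was 3.07-fold and *Jun* 2.41-fold above day 5 in control, the 2 members that passed, against 12.9% of genes higher (4.92% lower). In hypothyroid muscle none passed between days 5 and 14 (4.95% lower, 16.9% higher). Between diets at day 5 *Fos* was 2.70-fold higher in the 30 hypothyroid cells, 1 of 9 members against 4.27% of genes, and with the later columns included this ratio was 0.655. Restricted to cells with at most 8000 UMIs, the summed ratio at day 5 against day 0 was 0.624 in place of 0.329, and at day 14 against day 5 it was 1.10 in place of 1.73. Without the cells in 2 files these ratios were 0.307 and 1.85. *Hspa1a* moved the same way as *Fos* in control, at 557, 81.0, and 301 CPM at days 0, 5, and 14. In hypothyroid endothelial cells it did not, at 339 CPM at day 5 and 112 CPM at day 14. All 12 heat shock genes were below 1 in that hypothyroid step, with a median ratio of 0.754. The member median there was 1.548, with 1 of 9 members below 1. Whether heat shock and member levels are related was not tested.

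Between diets at day 14, endothelial and mural cells did not follow FAPs. The summed member ratio of hypothyroid to control was 1.12 (1.10 to 1.15 by counting) in endothelial cells, with *Egr1* at 1.40 and *Fosb* at 0.738, and 1.44 (1.386 to 1.503) in mural cells, with *Fos* at 1.75. None of the 9 passed 2-fold in either cell type (endothelial 6.21% of genes lower and 3.17% higher, mural 15.4% lower and 8.54% higher). Monocytes/macrophages had a ratio of 0.658, with *Jun* at 0.4725 as the member past 2-fold (5.87% of genes lower), and glial cells had 0.709, with *Ier2* at 0.388 (8.1% of genes lower, 3.92% higher). Without the cells that stood in another file, the ratio was 1.335 in endothelial cells and 0.803 in monocytes/macrophages, and the mural and glial pools held too few cells. The full mural pools were themselves small, at 35 hypothyroid and 142 control cells, and the glial pools held 22 and 38. In mural cells of control muscle, *Ier2* was the member past 2-fold between days 5 and 14, at 2.21 (15.3% of genes higher, 8.82% lower). At day 14 endothelial medians were 2415 UMIs in control and 2603 UMIs in hypothyroid muscle, closer than the FAP medians at that day. Monocyte/macrophage medians were further apart, at 3986 and 7119 UMIs. In cells with at most 8000 UMIs, the summed ratio between diets at day 14 was 1.295 in endothelial cells and 1.636 in mural cells. It was 0.847 in place of 0.658 in monocytes/macrophages.

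**Figure D4:**
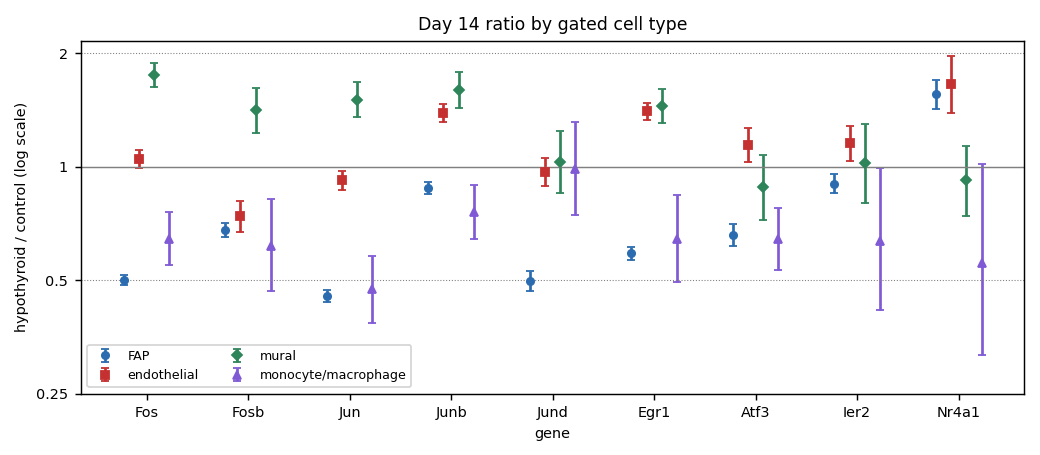
Ratio of hypothyroid to control at day 14 for each member (log axis) in 4 gated cell types, with exact 95% intervals for counting error only; dotted lines mark 2-fold. *Fos*, *Jun* and *Egr1* lie below 1 in FAPs and monocytes/macrophages and at or above 0.92 in endothelial and mural cells.

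Monocytes/macrophages reached 20 cells after injury. *Fos* was at 176 and 777 CPM in control at days 5 and 14 and at 249 and 499 CPM in hypothyroid muscle. In control, 7 of 9 members were at least 2-fold higher at day 14 than at day 5, against 7.02% of genes, with *Jun* at 4.45 (3.54 to 5.59), *Fos* at 4.42 and *Egr1* at 4.38, whereas *Junb* was at 0.868. In hypothyroid muscle the same step took 2 members past 2-fold (8.36% of genes), *Fos* at 2.01 and *Nr4a1* at 2.24. The summed ratio of that step was 1.28, 1.57 without the cells in 2 files and 1.17 in cells with at most 8000 UMIs. In control the summed ratio was 1.95, 1.82 in cells with at most 8000 UMIs and 1.46 with the later columns included. The control pools held 231 cells at day 5 and 66 cells at day 14. The difference between diets was not tested. Of 11 heat shock genes 5 were at least 2-fold higher at day 14 in control, against 7.02% of all genes, with a median of 1.94, and myocyte markers summed to 8634 CPM in these cells at day 14 against 857 CPM at day 5. Their part in the rise was not tested.

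Myogenic progenitors reached 20 cells after injury as well. *Egr1* was at 768 and 835 CPM in control at days 5 and 14 and at 494 and 1149 CPM in hypothyroid muscle, where it was 2.33-fold higher at day 14. *Atf3* was higher at day 14 in both diets, at 2.69 in control (11.2% of genes higher, 24.2% lower) and 3.51 in hypothyroid muscle (9.04% higher, 16.6% lower). Between diets at day 5 *Fos* was at 1.68 and *Egr1* at 0.643, and none of the members passed 2-fold (11.9% of genes lower, 3.26% higher). None passed at day 14 either (10.3% lower, 7.22% higher). In uninjured muscle only 5 control and 7 hypothyroid cells were gated, with *Fos* at 684 and 3051 CPM. A single cell held 68.8% of the 16 *Fos* UMIs in control and 63.6% of the 118 in hypothyroid muscle, so these pools describe a few cells. *Egr1* was detected in all of those cells.

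In myocytes *Fos* was at 351, 249, and 925 CPM in control at days 0, 5, and 14 and at 193 and 413 CPM in hypothyroid muscle at days 0 and 14. Its ratio at day 14 between diets was 0.446, and *Egr1* was at 0.190, 2 of the 3 members that passed 2-fold with *Jund* (0.327), against 18.1% of genes lower (6.76% higher). In uninjured muscle *Egr1* at 0.361, *Jun* at 0.483 and *Nr4a1* at 0.498 passed (12.8% lower, 5.65% higher). The myocyte pools held 28 and 234 cells at day 14, and with Leiden clusters in place of gates *Fos* and *Egr1* turned to 1.14 and 1.18 at day 14 and *Nr4a1* to 1.63 at day 0. In cells with at most 8000 UMIs the summed ratio at day 14 was 0.969 in place of 0.553. Without the cells in 2 files, the summed control ratio was 0.308 in place of 0.727 at day 5 against day 0 and 3.72 in place of 1.575 at day 14 against day 5.

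At the level of single cells the members were detected together. In FAPs thinned to 1000 UMIs, *Jun* was seen in 58.6% to 79.3% of cells with a *Fos* UMI and in 9.42% to 36.9% of cells without, and the ranges did not overlap. *Egr1* was seen in 59.7% to 79.2% against 16.01% to 48.3%. *Ier2* had a smaller gap, with 28.3% to 42.4% against 10.14% to 22.2%. Each of the 8 other members was more often detected in cells with *Fos* in all 6 libraries. FAPs with at least 3 members detected made up 52.0%, 45.8%, and 39.5% in control at days 0, 5, and 14 and 66.1%, 38.8%, and 24.0% in hypothyroid muscle. The 10% of FAPs with the most *Fos* held 56.4% to 68.0% of thinned *Fos* UMIs in 5 libraries and 89.5% in hypothyroid muscle at day 14. In that library fewer thinned FAPs held any *Fos* UMI, 18.5% against 31.3% to 39.2% in the others. Of its 796 FAPs, 559 also stood in another file.

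**Figure D5:**
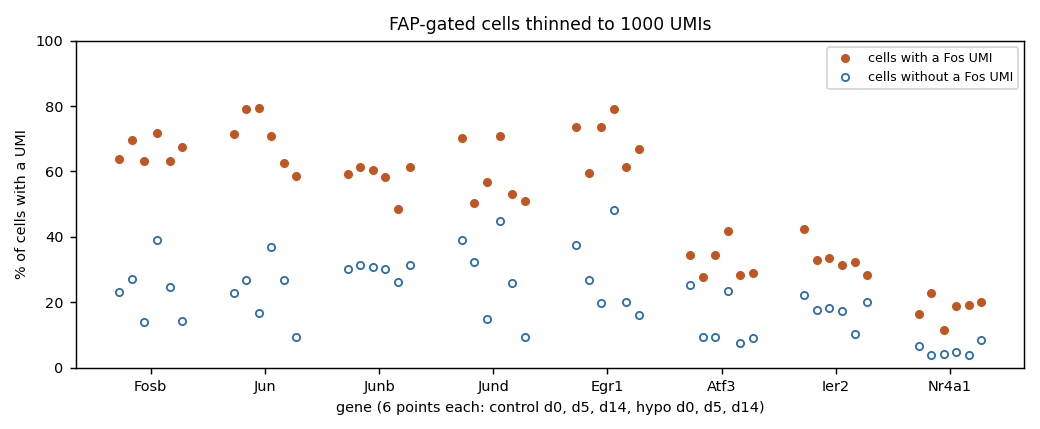
Share of FAP-gated cells with a UMI of each other member, among cells with (filled) and without (open) a *Fos* UMI, each thinned to 1000 UMIs; 6 points per gene in the order control days 0, 5, 14 and hypothyroid days 0, 5, 14. The filled point lies above the open point of the same library for every gene.

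Across the 38 pools of at least 20 cells, which share libraries and differ in depth, log2(CPM + 1) of *Fos* had a Pearson correlation of 0.933 with *Egr1*, 0.904 with *Atf3*, 0.835 with *Jun* and 0.366 with *Jund*. *Jund* was closest to *Ier2* among members, at 0.713. Of 6673 genes, those most like the summed members were *Ppp1r15a* (0.898), *Kitl* (0.8955), *Dlc1* (0.893) and *Spry4* (0.890), and the gene most like *Jun* was *Klf4* (0.928). *Ppp1r15a* belonged to the feedback list, and *Klf4* to the immediate early list. These values describe pools and were not tested.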

How the data were processed

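Single-cell RNA-Seq libraries were made with a droplet 3′ kit from TAM of control and hypothyroid mice, 1 library of 3 pooled mice for each diet and day. Per the labels, the authors used Cell Ranger within Partek and the mm39 build. The deposited values are log2(CPM + 1) per gene and cell, as the authors normalized them, with a pseudocount of 1. Files held 20269 cell columns in runs of ordered barcodes. The first run of each was used for the main results, and 9062 later columns entered only the alternative with all columns.

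UMI counts were recovered by setting each cell's most frequent value above 0 to 1 UMI, and 99.934% of 39334018 values were whole within 0.05. Gates scored each marker by its CPM over its 99.5th percentile. A cell took the top list if 3 markers had a UMI and its score was 2 times the next. No further cell filter and no doublet removal was applied, so a gated cell can be a doublet. Pools are the summed UMIs of a cell type in a library. Their CPM carries an exact Poisson interval and each ratio an exact interval based on the binomial (95%, counting error only). A gene was counted as changed at 2-fold or more, with at least 20 UMIs in the pair and 20 cells in each pool. Shares were taken after thinning to 1000 UMIs. With 1 library per condition no test was made. Recovery and ratios were tested on simulated data. Analyses used Python 3.11.15, numpy 2.4.6, scipy 1.17.1, pandas 2.3.3 and scanpy 1.11.5.

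All members could be named in every pool of at least 20 cells, and not every value is printed. From other lists, the 2 largest changes each way past 2-fold in FAPs and endothelial cells could be named. From the likeness to the members, the top 10 genes for their sum and the top 3 for each could be named. Members and lists were chosen with earlier results of these data known. Alternatives were a stricter gate, Leiden clusters, all columns, log means with 2 pseudocounts, cells of at most 8000 UMIs, thinned cells, no UMI minimum and, added after seeing the data, leaving out cells that stood in 2 files.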

Additional observations from a re-analysis of the deposited data

Results flagged for a closer look

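*Fos* moved in opposite directions in different cell types or days, and none of these differences was tested. In hypothyroid muscle at day 14 against day 0 its ratio was 2.14 in myocytes and 0.309 in FAPs. The myocyte ratio turned to 0.930 with Leiden clusters in place of gates. In T/NK cells the ratio of hypothyroid to control was 3.15 at day 5 and 0.496 at day 14, from 16 to 42 *Fos* UMIs per pool. *Jund* was at 2.49 in B cells and 0.271 in endothelial cells in control at day 5 against day 0.

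The later runs of columns, whose condition is unknown, also held the members. At days 0 and 5 the study's own cell counts are of the size of first and later runs together. As such they entered only the alternative with all columns. In FAP-gated cells of those runs the summed level was 3739 CPM in 559 cells of the control day 0 file, 5480 CPM in 1061 cells of the control day 5 file, 5037 CPM in 1529 cells of the control day 14 file, 5890 CPM in 73 cells of the hypothyroid day 0 file and 6626 CPM in 482 cells of the hypothyroid day 5 file. The 559 cells are copies of FAPs in the first run of hypothyroid day 14, and the 73 cells are copies of FAPs in that of control day 5. Their levels of 3739 and 5890 CPM are therefore not second observations, and these cells entered the main ratios through the first runs.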

How the results depend on the processing

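Counts of members past 2-fold in FAPs depended on depth, on columns and on how cells were summarized, and the cause was not tested. For hypothyroid over control at day 14, 2 lower became 1 with all columns, 4 with mean log2(CPM + 1), 0 with mean log2(CPM + 100), 0 in cells of at most 8000 UMIs and 4 without cells in 2 files. For control day 5 over day 0, 1 lower became 0 with all columns, 0 with log2(CPM + 100), 3 in cells of at most 8000 UMIs and 2 in thinned cells. For control day 14 over day 0, 2 lower became 0 with all columns, 1 with log2(CPM + 100) and 1 in thinned cells. For hypothyroid day 5 over day 0, 8 lower became 1 with all columns, 4 with log2(CPM + 1), 2 with log2(CPM + 100) and 2 in cells of at most 8000 UMIs. For hypothyroid day 14 over day 5, 1 lower became 5 with log2(CPM + 1) and 0 in cells of at most 8000 UMIs, and 1 was higher with log2(CPM + 1). With log2(CPM + 1), 3 members were higher at day 0 between diets and 4 were lower in control day 14 over day 5, in place of 0.

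Ratios past 2-fold that changed direction were these. With log2(CPM + 1), *Nr4a1* in FAPs (hypothyroid day 5 over day 0) became 1.19, and in control endothelial cells at day 5 over day 0 *Atf3* became 1.14 and *Ier2* 1.86. With all columns, endothelial *Fosb* (control day 5 over day 0) became 1.02 and *Fos* (between diets, day 5) 0.655. In T/NK cells of at most 8000 UMIs *Nr4a1* between diets at day 5 became 1.07. In myocytes, Leiden clusters gave *Fos* 0.903 (control day 14 over day 0), 1.14 (between diets, day 14) and 0.930 (hypothyroid day 14 over day 0), *Egr1* 1.18 (between diets, day 14) and *Nr4a1* 1.63 (between diets, day 0). The stricter gate gave *Fos* 1.11 between diets at day 14, and thinning gave *Ier2* 0.7385 (control day 14 over day 5).

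No paired analysis was possible because each condition was 1 library. Pools under 20 cells, the 1680 cells that stood in 2 files, unremoved doublets and free RNA limit all values.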
